A study of Mus musculus with 2 samples.

Results

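Hedgehog signalling genes were followed through the methylation profiles of a pair of layers of the embryonic mouse cerebral wall. The members were the receptor gene Ptch1, the signal transducer gene Smo, the ligand-binding genes Hhip, Boc and Cdon, the Gli inhibitor gene Sufu and the transcription factor genes Gli1, Gli2 and Gli3. They were chosen by name, as every row of the deposited peak tables that carried 1 of the 9 symbols, and a peak listed for several transcripts of a gene was counted once. All 9 had at least 1 listed peak, out of 13253 gene symbols with a peak in any table.

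The tissues were the V/SVZ, a layer rich in neuronal progenitors, and the cortical plate (CP), where differentiating neurons gather, both dissected by hand from ICR embryos at embryonic day 16. Methylated genomic DNA was captured with a methyl-binding protein and sequenced (MBD-seq), so that a region with many methylated CpG sites gives many tags, which are aligned reads. There was 1 library per tissue, and no value below has a replicate error or a p-value. The sources used here give neither the number of embryos nor their sex, and a dissected layer holds several cell types. A higher tag count can come from more cells methylated at a site or from more methylated sites per cell, and these cannot be told apart. It can also come from a larger library, since the tags are not normalized. The identity of the layers was not checked by marker genes, since the assay measures DNA and not expression.

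In Hedgehog signalling the ligand binds Ptch1, which otherwise holds Smo inactive, and Boc and Cdon act as co-receptors that help the ligand bind. Active Smo releases the Gli proteins from Sufu. Gli1 and Gli2 act mainly as activators, whereas Gli3 is processed to a repressor of target genes when the ligand is absent. Ptch1, Hhip and Gli1 are themselves transcriptional targets of the pathway, Hhip being a membrane protein that binds and sequesters the ligand. In the embryonic telencephalon the ligand Shh patterns ventral progenitors, and Gli3 is known for its part in dorsal, cortical identity.

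The tables compared V/SVZ with a control, CP with a control, V/SVZ directly with CP, and CP directly with V/SVZ. The lists of peaks over control held 52283 peaks in V/SVZ and 53404 in CP, with 1000061 and 1710134 tags in all. Each of the 2 tables holds 65535 lines and reaches down to a fold (the authors' ratio of a peak to its local expectation) of 11.48 in V/SVZ and 14.71 in CP. The direct comparisons set the same 2 libraries against each other, so they are not independent of the peaks over control. Peaks are numbered along the genome without exception in every table, so a gap in the numbers shows where peaks left out of a list lie. This leaves 6299 V/SVZ and 15993 CP numbers unlisted. The peak caller's false discovery rate was high in the direct lists. It was 40.2 to 89.9% for the members' V/SVZ over CP peaks and 100% for each of their CP over V/SVZ peaks, as for every peak of that list.

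None of the 9 genes had a listed peak over its 5′ end or within 1000 bp upstream of it, in any of the 4 tables. Such a promoter peak was listed over control for 7.69% of the 13194 genes that had any control peak, and for 5.81% of those with 10 or more. Some peaks over control are unlisted, so a peak of low fold may still lie at a member's promoter. In CP, 1 number is missing between the listed peaks on either side of the 5′ end of Smo. That span also holds a CP over V/SVZ peak. Of the members' peaks over control, 31 of 37 in V/SVZ and 30 of 31 in CP lay inside the transcript, and the others lay in the flanks. The like share over all genes is not given here, so no trait of the members is read from these counts. Whether a peak inside a gene falls on an exon or an intron is not stated in the tables. Positions of the 5′ end could be worked out from flanking peaks for 2 genes. The closest listed peak inside the gene lay 7255 bp from the 5′ end in Gli2, with 9 CP tags, and 7904 bp from it in Smo, with 14 CP tags.

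Promoter sequences are shown because they mark the stretch in which no peak was listed. RefSeq windows (assembly GRCm38.p6, whose coordinates differ from the mm9 coordinates of the peaks) were at hand for 7 members, and the 250 bases before the annotated start were read. The table's start can differ from that of the deposited transcript. Each window is printed 5′ to 3′, with CpG sites in capitals.
Ptch1 (chr13:63565736-63565985, - strand): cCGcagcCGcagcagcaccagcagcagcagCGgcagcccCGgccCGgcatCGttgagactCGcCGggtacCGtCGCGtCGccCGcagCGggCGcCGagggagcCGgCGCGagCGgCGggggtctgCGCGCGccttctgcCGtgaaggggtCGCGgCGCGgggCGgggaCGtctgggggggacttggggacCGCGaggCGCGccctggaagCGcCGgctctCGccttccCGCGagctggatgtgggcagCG
Gli2 (chr1:119053620-119053869, - strand): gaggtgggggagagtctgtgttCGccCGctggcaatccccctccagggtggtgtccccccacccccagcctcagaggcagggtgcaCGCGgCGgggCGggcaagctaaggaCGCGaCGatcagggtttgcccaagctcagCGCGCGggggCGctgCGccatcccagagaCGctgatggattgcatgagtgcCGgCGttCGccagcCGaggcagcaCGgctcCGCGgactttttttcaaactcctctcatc
Sufu (chr19:46396646-46396895, + strand): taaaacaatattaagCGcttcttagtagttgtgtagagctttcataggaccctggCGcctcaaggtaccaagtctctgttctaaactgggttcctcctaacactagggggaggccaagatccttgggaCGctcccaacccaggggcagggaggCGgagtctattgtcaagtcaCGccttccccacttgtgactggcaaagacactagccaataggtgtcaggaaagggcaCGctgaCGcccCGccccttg
Cdon (chr9:35451826-35452075, + strand): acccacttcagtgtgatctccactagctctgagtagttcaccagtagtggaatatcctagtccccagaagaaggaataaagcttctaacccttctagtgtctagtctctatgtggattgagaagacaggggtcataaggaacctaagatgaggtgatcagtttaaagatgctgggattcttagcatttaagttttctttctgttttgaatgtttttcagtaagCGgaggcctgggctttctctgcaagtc
The Ptch1 window held 41 CpG sites, the most among the 7, followed by Gli3 with 34, Hhip with 28, Gli2 with 22 and Smo with 15. Sufu held 8 and Cdon 1. The median over all 32851 windows in the table was 6, and 37.8% of them held 10 or more CpG sites, as did 5 of the 7. CpG-dense promoters without a listed peak were the common case: of 5266 autosomal genes with a control peak and 10 or more CpG sites in the window, 3.87% had a promoter peak, against 10.98% of those with 5 to 9 and 5.81% of those with 0 to 4. The Gli consensus letters GACCACCCA, which hold no CpG, were searched on both strands. They were in 0 of the 7 windows and in 0.225% of all windows.

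**Figure D1:**
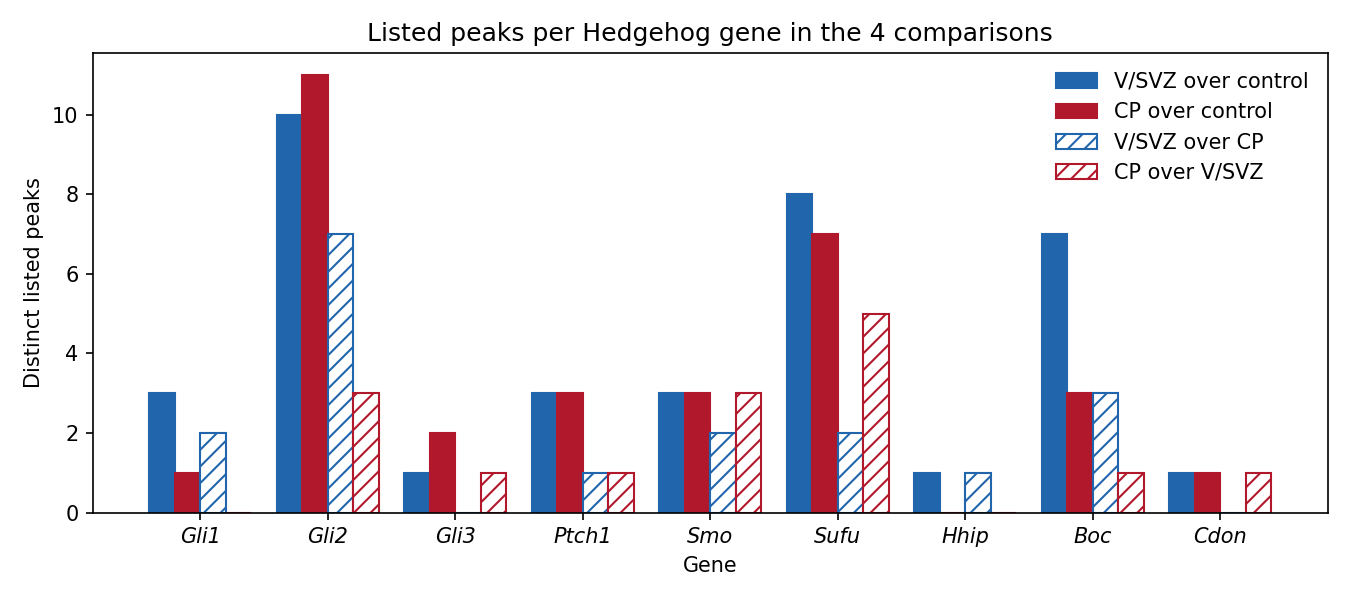
Number of distinct listed peaks (vertical axis) of each gene (horizontal axis) in the 4 comparisons; filled bars are peaks over control and hatched bars are direct peaks. Gli2 stands highest in 3 of the comparisons with 10, 11 and 7 peaks, and Sufu in CP over V/SVZ with 5.

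Peaks were spread unevenly over the genes. Gli2 had 10 V/SVZ and 11 CP peaks over control, Sufu 8 and 7, and Boc 7 and 3. Ptch1 and Smo each had 3 and 3, Gli1 had 3 and 1, Gli3 had 1 and 2, Cdon had 1 and 1, and Hhip had 1 and 0. The median over the members was 3 in each tissue, against a median of 2 over all genes with a control peak. Long genes can hold more peaks, and these counts are not per length. Gli2 was matched or passed by 354 genes in V/SVZ and 204 in CP (both counts include Gli2). The genes most like it by their number of peaks in the 4 tables were Ank, Camk1d and Mkl1, each with a summed difference of 2 peaks.

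Joining overlapping peaks of the 4 tables gave 54 separate regions over the 9 genes. Of these, 21 were listed over control in both tissues, 16 in V/SVZ alone, 10 in CP alone and 7 in neither, the last being seen in a direct comparison only. The shared regions were 56.8% of the members' V/SVZ control peaks (Wilson 95% interval 40.9 to 71.3%, counting error only), beside 64.5% over all V/SVZ peaks. They were 67.7% (50.1 to 81.4%) of the CP peaks, beside 62.9%.

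The gaps in the peak numbers sharpen what these lists say. All 10 regions listed in CP alone lay between consecutively numbered V/SVZ peaks, so no unlisted V/SVZ peak was numbered there (over all CP peaks without a listed partner, 90.6%). These 10 regions held 7 to 15 CP tags, and the smallest V/SVZ peak of the members held 6. The median over all shared autosomal regions was 1.815 CP tags per V/SVZ tag. Whether V/SVZ had a lower level at these 10 regions was therefore not tested by the lists. Of the 16 regions listed in V/SVZ alone, 7 lay between consecutive CP numbers (over all such V/SVZ peaks, 58.0%). These 7 were 2 each in Gli2, Sufu and Boc and 1 in Hhip. At the other 9 an unlisted CP peak of low fold may be present. All 6 regions seen only as CP over V/SVZ peaks lay where CP numbers are missing. The 1 region seen only as a V/SVZ over CP peak, in Gli1 (6 tags), lay between consecutive V/SVZ numbers.

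Direct peaks were found in both directions. There were 18 V/SVZ over CP peaks in 7 genes, all but Gli3 and Cdon, and 15 CP over V/SVZ peaks in 7 genes, all but Gli1 and Hhip. Of the 13194 genes, 54.6% were in the V/SVZ over CP list, 57.0% in that of CP over V/SVZ, and 31.3% in both, as were 5 of the 9 members. These shares depend on the number of control peaks. Gli2, Sufu and Boc had 10 or more over both tissues, and all 3 carried direct peaks in both directions. Of all such genes, 95.1% had a peak higher in V/SVZ, 86.1% one higher in CP, and 81.8% both. Ptch1 and Smo, with 6 each, had both directions too. The shares over the genes with 5 to 9 were 70.5% for V/SVZ, 68.2% for CP and 45.7% for both. Gli1, Gli3 and Cdon had 2 to 4 control peaks and 1 direction each, where 40.7% of genes had the first direction, 47.2% the second and 16.9% both. Hhip, with 1 control peak, was listed in V/SVZ over CP, as were 29.5% of such genes, beside 38.5% in the other direction and 2.65% in both. Carrying a direct peak was thus common among genes with this many control peaks. By peaks, 17 of 37 V/SVZ control peaks of the members overlapped a V/SVZ over CP peak (45.9%, Wilson 31.0 to 61.6%), beside 35.6% over all, and 8 of 31 CP control peaks overlapped a CP over V/SVZ peak (25.8%, 13.7 to 43.2%), beside 28.5%. Both intervals include the background share. The peaks share genes and 1 pair of libraries, so this is not a test of the members against all peaks.

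At the regions shared by the tissues the tags can be set side by side. The sources used here give no library totals, so each ratio stands beside the median of all 32295 shared autosomal regions, which was 1.815 CP tags per V/SVZ tag (quartiles 1.25 and 2.58). The median over the members' 21 shared regions was 1.5 (quartiles 0.875 and 3), with 8 above and 13 below that of all regions. The members' ratios ran from 0.400 to 6.33. In 6 regions the exact 95% interval lay below 1.815, 4 of them in Gli2 and 1 each in Ptch1 and Smo. In 5 regions it lay above, 2 of them in Sufu and 1 each in Ptch1, Gli3 and Cdon. Over all shared autosomal regions, 10.1% lay below and 12.3% above in this way. The 6 shared regions with a V/SVZ over CP peak had ratios of 0.400 to 0.875, the 4 with a CP over V/SVZ peak 3.53 to 6.33, and the 11 with neither 1.25 to 3.92.

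**Figure D2:**
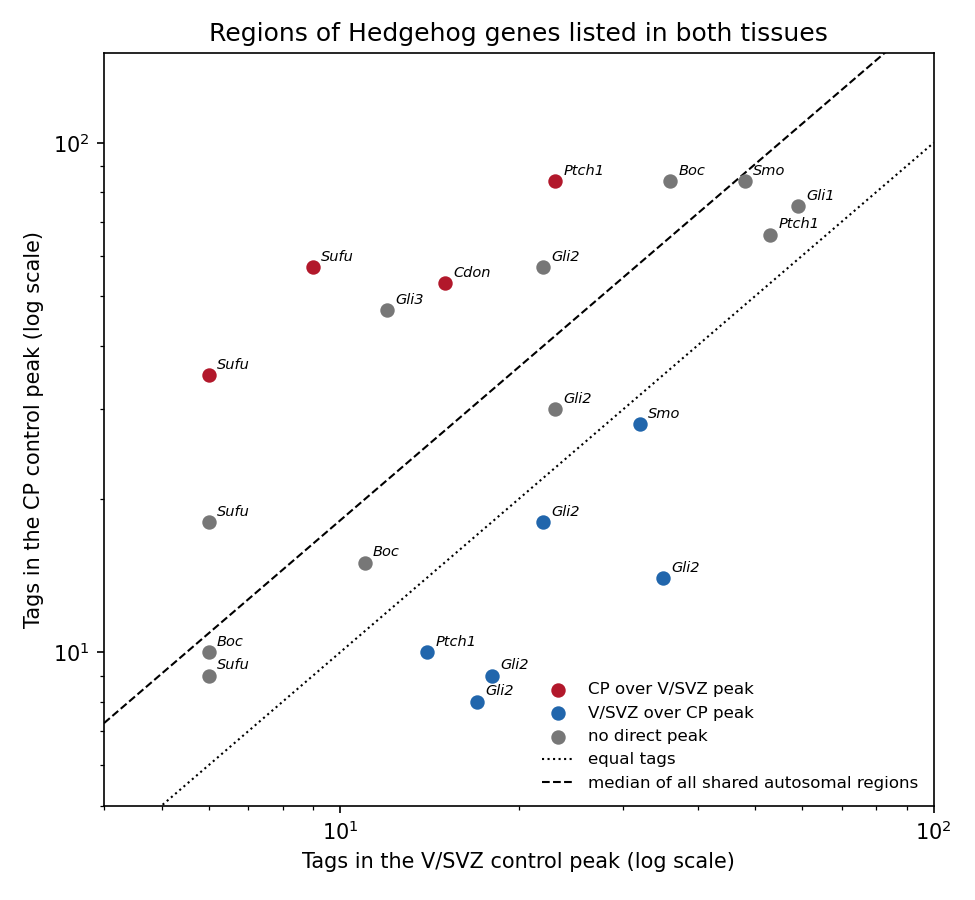
Tags in the V/SVZ control peak (horizontal axis) and in the overlapping CP control peak (vertical axis), both on log scales, for the 21 shared regions; colours give the direct peak at the region. The 6 regions with a V/SVZ over CP peak, 4 of them in Gli2, lie under the line of equal tags, and the 4 with a CP over V/SVZ peak lie above the median of all shared regions.

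Ptch1, the ligand receptor, had 3 regions, all inside the gene and listed in both tissues. The region at chr13:63612911-63613443 (mm9, as for all peaks here) held 23 V/SVZ and 84 CP tags, a ratio of 3.65 (exact 95% interval 2.28 to 6.07), and was a CP over V/SVZ peak. The region at chr13:63634609-63635030 held 53 and 66 tags (1.25, 0.854 to 1.82) and had no direct peak. The region at chr13:63640443-63640763 held 14 and 10 tags (0.714, 0.284 to 1.73) and was a V/SVZ over CP peak. The direct peaks of Ptch1 thus pointed in opposite directions within 1 gene, 27.0 kb apart.

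Smo, the membrane protein that passes the signal on, had 6 regions. Its strongest, at chr6:29704268-29704888, held 48 V/SVZ and 84 CP tags, a ratio of 1.75 (1.21 to 2.55) close to the median of all regions. The other shared region, at chr6:29695350-29696023, held 32 and 28 tags (0.875, 0.508 to 1.5) and was a V/SVZ over CP peak. Its peaks differed in length, 674 bp in V/SVZ and 334 bp in CP, and per bp the ratio was 1.77, so that its tags do not show a higher density in V/SVZ. A CP over V/SVZ peak of 14 tags lay 1.65 kb away, at chr6:29693400-29693704. Another, of 31 tags, lay at chr6:29703414-29703802, and the third, of 9 tags, at chr6:29709899-29710177. The third also lies 8355 bp upstream of the neighbouring gene Ahcyl2. Upstream of Smo, 5289 bp from its 5′ end by the deposited distance, a V/SVZ peak of 6 tags had no listed CP partner. Its direct fold, 18.3, was the highest of the members' V/SVZ over CP peaks.

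Boc had 8 regions, of which 4 were listed in V/SVZ alone and none in CP alone. The shared regions held 36 V/SVZ and 84 CP tags at chr16:44499421-44499800 (ratio 2.33, 1.56 to 3.55), 11 and 15 at chr16:44487582-44488008, and 6 and 10 at chr16:44509064-44509383. None of the 3 was a direct peak. The V/SVZ over CP peaks of Boc held 12, 9 and 6 tags, all without a listed CP partner, and the last lay 9310 bp downstream of the gene. At the peaks of 9 and 6 tags no CP peak number was missing. A CP over V/SVZ peak at chr16:44496219-44496653 held 31 CP tags. The largest region of Boc listed in V/SVZ alone, with 19 tags, was not a direct peak.

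Cdon, the other co-receptor, had 1 region, and it lay downstream of the gene (chr9:35324233-35324788, 8999 bp from the 3′ end by the V/SVZ table). It held 15 V/SVZ and 53 CP tags (ratio 3.53, 1.96 to 6.75) and was a CP over V/SVZ peak. Hhip, the ligand-sequestering protein, also had 1 region, inside the gene at chr8:82496233-82496598. It held 8 V/SVZ tags, was a V/SVZ over CP peak, and no CP peak number was missing there.

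Sufu, the cytoplasmic inhibitor of the Gli proteins, had 13 regions, all inside the gene. Its V/SVZ peaks were small, with 6 to 9 tags each, whereas its CP peaks held 7 to 57. At chr19:46547814-46548315 there were 9 V/SVZ and 57 CP tags, a ratio of 6.33 (3.11 to 14.6), the highest of the members. At chr19:46515580-46515938 there were 6 and 35 tags (5.83, 2.43 to 17.0). Both were CP over V/SVZ peaks. The region at chr19:46533106-46533961 held 6 and 18 tags, with a V/SVZ peak of 230 bp and a CP peak of 856 bp, and that at chr19:46489979-46490319 held 6 and 9. Over these 4 shared regions Sufu had 27 V/SVZ and 119 CP tags, a ratio of 4.41 (2.88 to 6.96).

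Among the 1282 autosomal genes with at least 4 shared regions, none had a higher ratio than Sufu, the median being 1.764 and the central 95% running from 0.986 to 2.93. The places of Sufu and Gli2 among these genes, and the alternatives tried for them, were chosen after seeing the data. Per bp the ratio of Sufu was 3.06, and 3 of the genes were higher. Leaving out 1 of its shared regions at a time moved it between 3.44 and 5.24, with 0 to 5 genes higher, the lowest being without the region of 9 and 57 tags. The V/SVZ counts are near the lowest of the list, and low V/SVZ counts go with higher ratios: over the 9472 shared autosomal regions of 6 to 9 V/SVZ tags the median was 2 and the 95th percentile 5. Of the 48 genes whose shared regions averaged fewer than 10 V/SVZ tags, the median ratio was 2, the 95th percentile 3.34, and none exceeded Sufu. That set of genes was not planned, and it was not matched to the 6 to 9 V/SVZ tags of the regions of Sufu. The part of the low counts in the result was not tested.

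The direct peaks of Sufu lay mostly the same way, 5 CP over V/SVZ against 2 V/SVZ over CP. Of the 5, 3 followed each other over 6.66 kb at chr19:46547814-46554471, with 57, 25 and 10 CP tags. At the second of these the V/SVZ peak held 6 tags and no CP control peak was listed, although the direct peak held 25 CP tags. CP peak numbers are missing at that place. The 2 V/SVZ over CP peaks, at chr19:46527644-46527875 and chr19:46534088-46534383, held 7 and 8 tags. The first region of the gene, with 7 V/SVZ tags, also lies 4353 bp upstream of Actr1a.

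**Figure D3:**
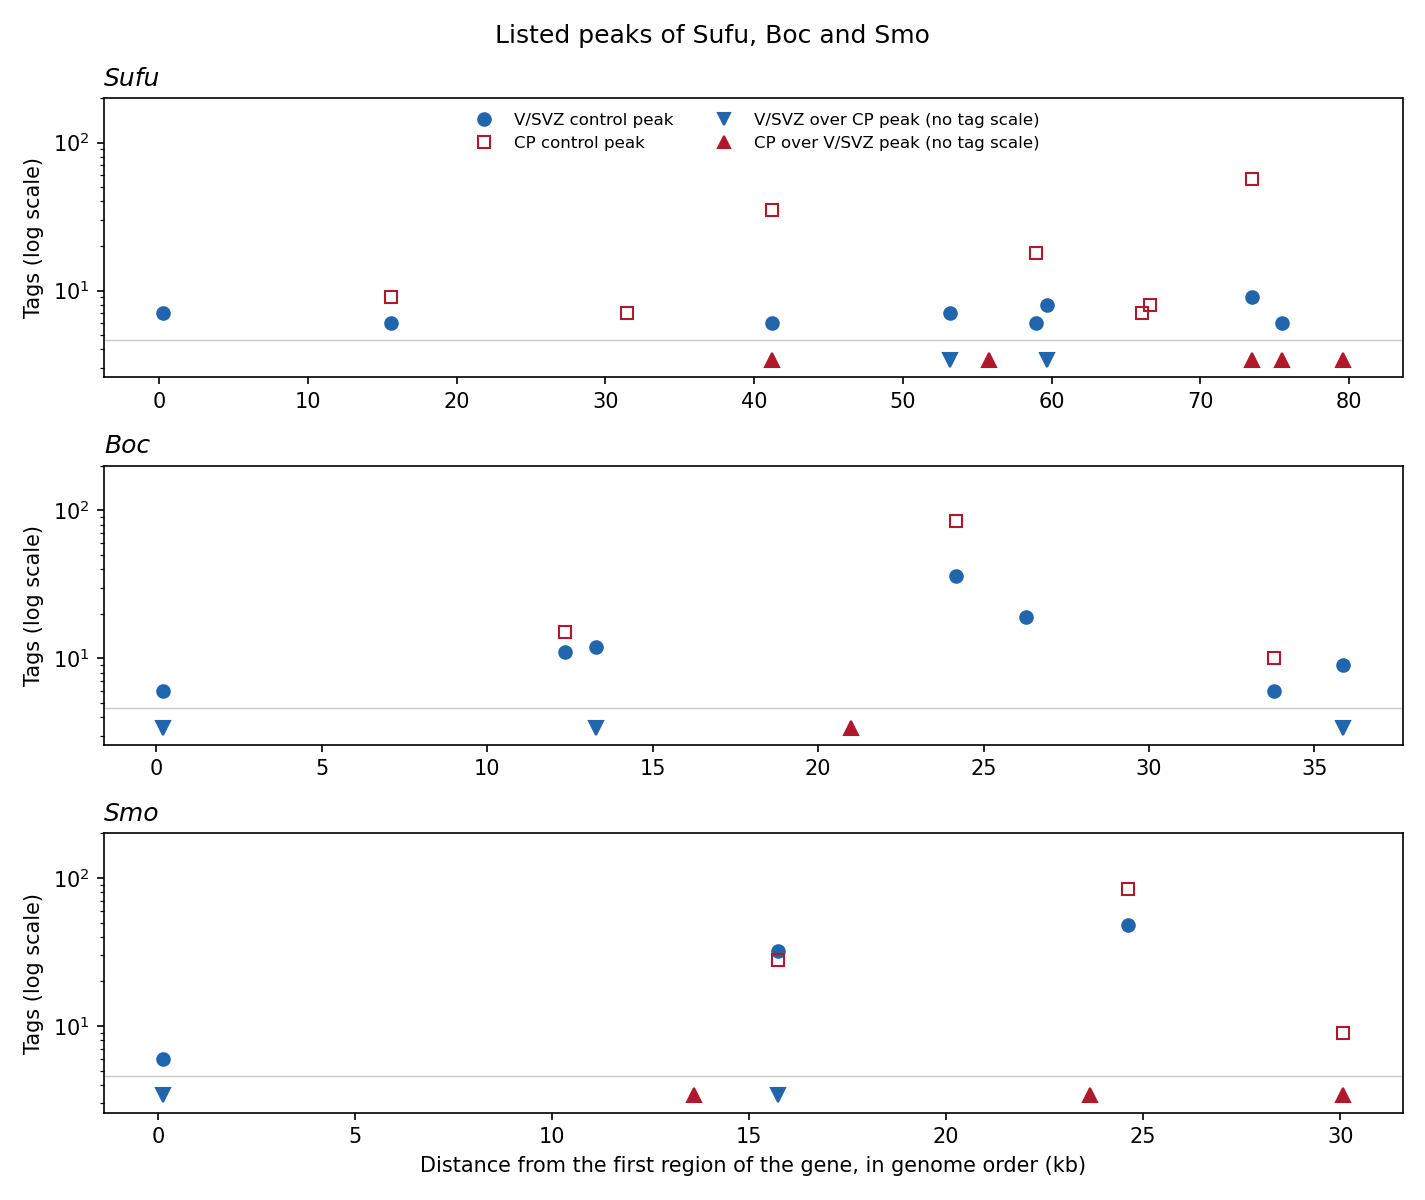
Tags per control peak on a log scale (vertical axis) along Sufu, Boc and Smo by distance in kb from the first region in genome order (horizontal axis); circles are V/SVZ and squares CP control peaks, and triangles under the grey line mark direct peaks with no tag value. In Sufu the V/SVZ peaks sit at 6 to 9 tags along the whole gene, and the CP peaks of 35 and 57 tags stand out above them.

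Gli1, the activator whose gene is a pathway target, had 4 regions. The 1 shared region, inside the gene at chr10:126770439-126771585, held 59 V/SVZ and 75 CP tags (ratio 1.27, 0.892 to 1.82) and was not a direct peak. The others held 6 to 8 V/SVZ tags. All 4 regions also lie within 10 kb of the neighbouring gene Arhgap9. The V/SVZ over CP peak of 7 tags at chr10:126760394-126760655 lies 6282 bp downstream of Gli1 and 127 bp upstream of Arhgap9, so it counts as a promoter peak of that neighbouring gene by the same distance.

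Gli3, the member that yields the repressor, had 2 regions, both inside the gene. One, at chr13:15816308-15817430, held 12 V/SVZ and 47 CP tags (ratio 3.92, 2.05 to 8.11), but the V/SVZ peak was 295 bp long and the CP peak 1123 bp, and per bp the ratio was 1.03. It was not a direct peak. The other, at chr13:15754250-15754480, held 7 CP tags and was a CP over V/SVZ peak, with no V/SVZ number missing. Its direct fold of 21.4 was the highest of the members in that list.

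Gli2, the main activator of the pathway, carried more V/SVZ over CP peaks than any other member, 7 of the 18, and 3 CP over V/SVZ peaks. It also had the most control peaks of the members. Of the 13194 genes with a control peak, 247 had at least as many V/SVZ over CP peaks as Gli2. At least as many CP over V/SVZ peaks were listed for 1294. The 16 regions of Gli2 lay along a transcript of 219.6 kb and in both flanks. Of the 6 shared regions, 4 were V/SVZ over CP peaks and held fewer CP than V/SVZ tags. The strongest, at chr1:120893155-120893471, held 35 V/SVZ and 14 CP tags, a ratio of 0.400 (0.199 to 0.763), with the highest significance score of the members' V/SVZ over CP peaks, 253.41. The next held 17 and 8 tags (chr1:120852547-120852883), 18 and 9 (chr1:120859289-120859624), and 22 and 18 (chr1:120751974-120752301). The other 2 shared regions held more CP tags, 22 and 57 at chr1:120909738-120910425 (2.59, 1.56 to 4.45) and 23 and 30 at chr1:120883614-120884222.

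Summed over its shared regions Gli2 had 137 V/SVZ and 136 CP tags, a ratio of 0.993 (0.777 to 1.27), and 2.73% of the 1282 genes were lower. Leaving out 1 shared region at a time moved the ratio between 0.687 and 1.20 and that share between 0.234 and 8.03%. The lowest came without the region of 22 and 57 tags and the highest without that of 35 and 14. The intervals of Gli2 and Sufu did not overlap, which concerns counting error in these libraries alone.

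Direct peaks of both directions lay along Gli2, and whether they were grouped was not tested. In a stretch of 54.5 kb in the middle of the gene (chr1:120838959-120893471), picked after the values were seen, 4 of 5 regions were V/SVZ over CP peaks. In a stretch of 11 kb closer to the 3′ end, 3 regions in a row were listed in CP alone, with 7, 9 and 7 tags, and no V/SVZ number was missing there. The middle one, at chr1:120783087-120783325, was a CP over V/SVZ peak. The tag counts of the 3 are near the 6 tags of the members' smallest V/SVZ peak. Absence from the V/SVZ list alone thus does not show a lower level there. Near the 3′ end the directions met: a V/SVZ over CP peak of 8 tags (chr1:120740833-120741068) and a CP over V/SVZ peak of 15 tags (chr1:120742410-120742695) lay 1341 bp apart. The third CP over V/SVZ peak, of 7 tags, lay 7927 bp downstream of the gene. A V/SVZ over CP peak of 6 tags lay 6505 bp upstream of it.

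The largest peak of all members was in Gli2 and was not a direct peak. At chr1:120732415-120734763, which starts 1778 bp inside the 3′ end, V/SVZ held 303 tags over 2349 bp, or 129 tags per kb, against a median of 30.8 tags per kb over all V/SVZ peaks. No CP control peak was listed there. Its V/SVZ fold was 14.98, near the lowest fold listed in CP, and 2 CP peak numbers are missing between the neighbouring listed CP peaks. It was in neither direct list, so its absence from the CP list does not show a lower count in CP.

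**Figure D4:**
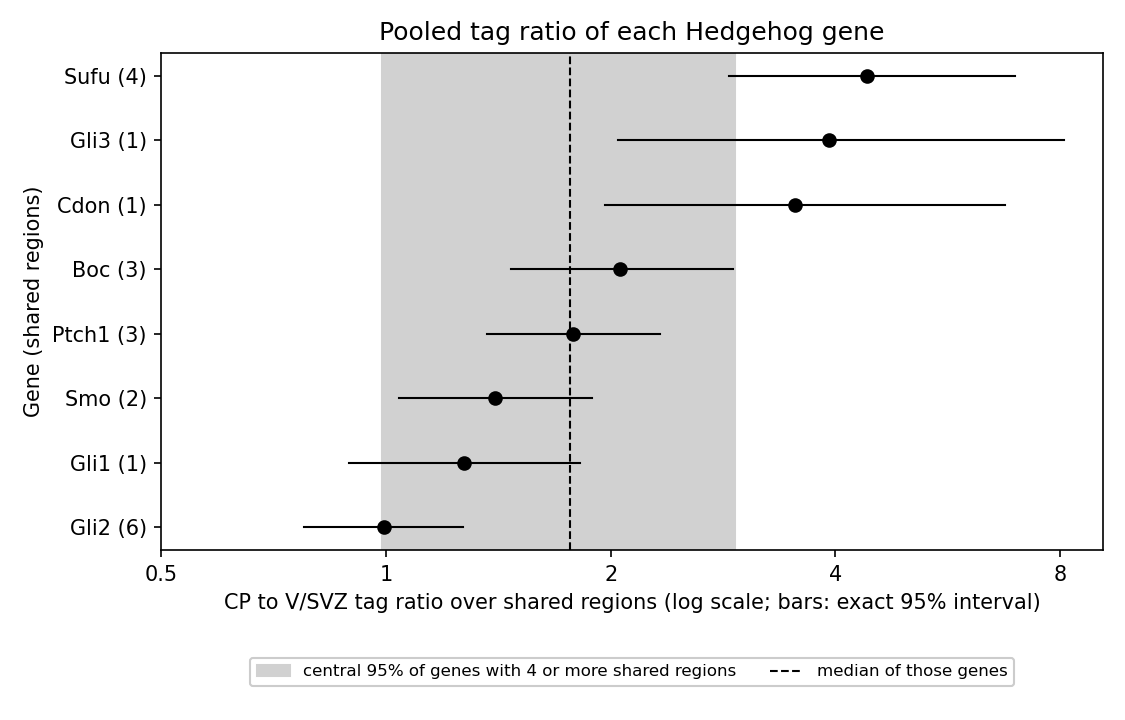
CP to V/SVZ tag ratio summed over the shared regions of each gene, on a log scale (horizontal axis), with exact 95% intervals as bars and the number of shared regions in parentheses; the grey band is the central 95% of the 1282 genes with 4 or more shared regions and the dashed line their median. Gli2 lies at the lower edge of the band and Sufu above it, and the ratios of Gli3 and Cdon rest on 1 region each. Only Gli2 and Sufu have 4 or more shared regions, so the band is not a like range for the other genes. Over all single shared autosomal regions the 5th and 95th percentiles were 0.702 and 4.17.

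A wider list of 50 pathway symbols (Foxf1 and Foxf1a name the same gene) was set beside the members. Of these, 30 had a control peak, 14 were in the V/SVZ over CP list (46.7%, beside 54.6% of all genes) and 18 in the opposite one (60%, beside 57.0%). In both lists were 10 of the 30, beside 31.3% of all genes. The counts by group that follow are small. They were not set beside genes with like numbers of control peaks, on which such shares depend. The ligand genes and genes of ligand release had 6 of 8 with a control peak, with 3 in each direction. Shh itself had no peak in any table. Scube1, a secreted protein family member of which Scube2 helps release the ligand, had 7 V/SVZ over CP and 3 CP over V/SVZ peaks. Its relative Scube3 had 4 CP over V/SVZ peaks and none in the other direction. Of the other surface proteins with a control peak, 2 of 6 were in the V/SVZ over CP list and 5 in the opposite one. Gpr161, a ciliary receptor that restrains the pathway, had 3 V/SVZ over CP peaks and 1 in the other direction.

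Of the genes of the cilium, where the pathway operates, 3 of 4 had each direction. Stk36, a kinase, had 3 CP over V/SVZ peaks and none in the other direction. Of the kinases and genes of Gli degradation, 4 of 7 were in the V/SVZ over CP list and 6 in the opposite one. Prkar1a, a regulatory subunit of protein kinase A, had 4 V/SVZ over CP and 2 CP over V/SVZ peaks. Gnas, the stimulatory G protein subunit gene, had 3 CP over V/SVZ peaks and none in the other direction. Btrc, an adaptor that marks Gli proteins for processing, had 3 V/SVZ over CP and 2 CP over V/SVZ peaks. The ventral and response genes had 7 of 17 with a control peak, 2 of them in the V/SVZ over CP list and 1 in the opposite one. Zic2, a zinc finger factor, had 3 V/SVZ over CP peaks, all in its flanks, and none in the other direction.

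Promoter peaks over control, of which the members had none listed, were found in 3 of the 30 genes of the wider list with a control peak. Over all genes with a control peak the share was 7.69%, and these small counts do not set the groups apart. The promoter of Gpc3, a proteoglycan that binds the ligand and lies on the X chromosome, held 11 V/SVZ and 111 CP tags (chrX:49966290-49967591 in CP) and was a CP over V/SVZ peak. As the sex of the embryos is not given, sex and layer cannot be told apart at this promoter. The promoter of Spop, a ubiquitin ligase adaptor for Gli proteins, held 23 tags in V/SVZ (chr11:95275329-95275737). That of a Gnas transcript held 96 (chr2:174109597-174111032). Neither had a listed CP promoter peak, and neither promoter was a V/SVZ over CP peak. The V/SVZ fold of the Gnas peak, 14.09, was below the lowest fold listed in CP, 14.71. For Gnas, absence from the CP list thus does not show a lower count in CP. The V/SVZ fold of the Spop peak was 45.65, and whether its CP count was lower was not tested.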

How the data were processed

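Per the labels, methylated DNA was enriched from 1 V/SVZ and 1 CP library. The submitters' processing notes name CASAVA 1.8, Bowtie and, as build, mm9. Region names are those of MACS, per the file headers; the sources used here give neither its version and settings nor what the control was. The deposited tags are counts of the named library's reads, not normalized. The deposited fold is the authors' ratio, the significance a score computed by the authors as the negative log10 of p times 10, and the false discovery rate a percent given by the authors. The tables assign peaks to transcripts within 10 kb.

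Peaks of the 4 tables were joined where they overlapped by 1 bp or more, with Python 3.11.15, pandas 2.3.3 and scipy 1.17.1. Shares carry Wilson and tag ratios exact binomial 95% intervals. They hold no replicate error, and they treat peaks or reads as independent. Reads without molecular identifiers are not independent molecules, and peaks of 1 gene may not be independent. The intervals can thus be too narrow even for counting error. Overlap and intervals were tested on simulated data with independent counts and no lower limit on tags. This checks the code and not how well the intervals hold for these reads. Alternatives were a fold of at least 15, an overlap of 50%, tags per bp, and subsets of direct peaks. The members, lists and tests were chosen with earlier results of these data known. Named genes were the 9 members and the 3 genes most like Gli2 by peak number, and, of the wider list, those with a promoter peak and the 3 with the most direct peaks in each direction, ties included.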

Additional observations from a re-analysis of the deposited data

How the results depend on the processing

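No paired analysis was possible because there was 1 library per tissue. Of 18 V/SVZ over CP peaks, 8 were in the more significant part of that list (a score at or above its median), in 4 of the 7 genes. Of 15 CP over V/SVZ peaks, 9 were in the more significant part of theirs, and 8 overlapped a listed CP control peak. The CP to V/SVZ ratio of Gli3 fell from 3.92 to 1.03 per bp, since the CP peak was longer. The other planned counts stayed within 1.5 times and the other planned ratios within their intervals. With at least 3 shared regions per gene in place of 4, chosen after seeing the data, 2 of 2659 genes had a higher ratio than Sufu. Most V/SVZ peaks of the members held few tags (median 11), so single ratios carry wide intervals.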
